A study of Mus musculus with 4 samples.

Results

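Expression in sorted mouse bone marrow cells lacking Fancd2 was compared with that in wild-type cells, gene by gene. The comparison is the signal of the Fancd2 knockout array (Fancd2KO) minus that of the wild-type array (WT), both on a log2 scale, so that a difference of 1 is a doubling. It covers 22180 genes, each represented by the brightest of its probe sets with 1 gene symbol, out of 41345 probe sets on the array. Of these genes, 17085 carry a symbol that names an established gene, and the rest are predicted genes, pseudogenes, small RNAs, chemosensory receptors or receptor segments that were counted and not named.

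The series holds 4 Affymetrix Mouse Gene 2.0 ST arrays, which probe transcripts along their length, with 1 array for each genotype: WT, Fancd2KO, Foxo3aKO and the double knockout of Fancd2 and Foxo3a (DKO). Marrow came from mice aged 2 months. The sorted cells, labelled SLAM, lacked lineage antigens and CD34 and carried c-Kit and Sca-1, a gate for long-term haematopoietic stem cells. The sources used here do not give the knockout alleles, the sex of the mice or the number of mice behind an array. With 1 array per genotype there is no replicate check and no test of any difference below. DKO minus Foxo3aKO, which also differs by Fancd2 and shares no array with Fancd2KO minus WT, was used as a separate measurement of Fancd2 loss on another background.

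FANCD2 is the protein at the centre of the Fanconi anaemia pathway. When a replication fork meets an interstrand crosslink, the Fanconi core complex attaches ubiquitin to FANCD2 and its partner FANCI, and the modified pair directs nucleases, translesion polymerases and homologous recombination to the lesion. People and mice with defects in the pathway lose haematopoietic stem cells, and reactive aldehydes and activation of p53 are known contributors to that loss.

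Fancd2 itself had log2 signals of 6.56 (WT), 6.08 (Fancd2KO), 6.67 (Foxo3aKO) and 5.84 (DKO). Both arrays labelled as lacking Fancd2 were below both arrays that carry it, with differences of -0.48 for Fancd2KO minus WT and -0.83 for DKO minus Foxo3aKO. The first difference was about 1 SD of the disagreement between probe sets of the same gene on this array pair. Among 968 genes with exactly 2 probe sets, the 2 differences of a gene disagreed with an SD of 0.48 log2, and the 95th percentile of the disagreement was 0.911. That disagreement holds the error of 2 probe sets, so it is wider than the error of 1. Which exons the Fancd2 probe set covers was not known, and if it lies outside the deleted part it checks nothing. Genes beside Fancd2 on chromosome 6 were examined as well. Of the 20 nearest measured neighbours, 11 were higher and 9 lower in Fancd2KO, and 0 reached 2-fold. The highest were Atp2b2 (0.79), Vhl (0.70) and Tatdn2 (0.67), and the lowest was Irak2 (-0.31). Atp2b2 was dim, at 4.14 in WT and 4.93 in Fancd2KO, below the median of all gene values, 5.51. For DKO minus Foxo3aKO, Atp2b2 was at 0.22, Vhl at -0.04, Tatdn2 at -0.32 and Irak2 at -0.30.

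The signals of the array pair were close, with a median difference of 0.00 log2 over all genes and an SD of 0.386. A gene was called higher or lower when it differed by at least 2-fold. By that rule 256 genes were higher in Fancd2KO, 1.15% of those measured, and 223 were lower, 1.01%. Genes higher by any amount made up 49.8%. The members nearest the threshold differed by 1.0 and -1.0, and the nearest outside it by 0.997 and -0.998. For DKO minus Foxo3aKO, 183 genes (0.825%) were at least 2-fold higher, 341 (1.54%) were at least 2-fold lower and 55.3% were higher by any amount. Many calls rest on dim signals. The median of all gene values, 5.51 log2, served as a floor, and 56 of the higher and 62 of the lower genes lay below it on both arrays. When signals below the floor were raised to it, 134 higher and 113 lower genes kept a 2-fold difference. At 4-fold there were 23 higher and 26 lower genes. A second probe set existed for 12 of the higher genes and was on the same side in 9 and past 2-fold in 2. For 17 of the lower genes it was on the same side in 15 and past 2-fold in 6. Of the calls, 54 higher and 109 lower ones belong to genes that are not named.

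**Figure D1:**
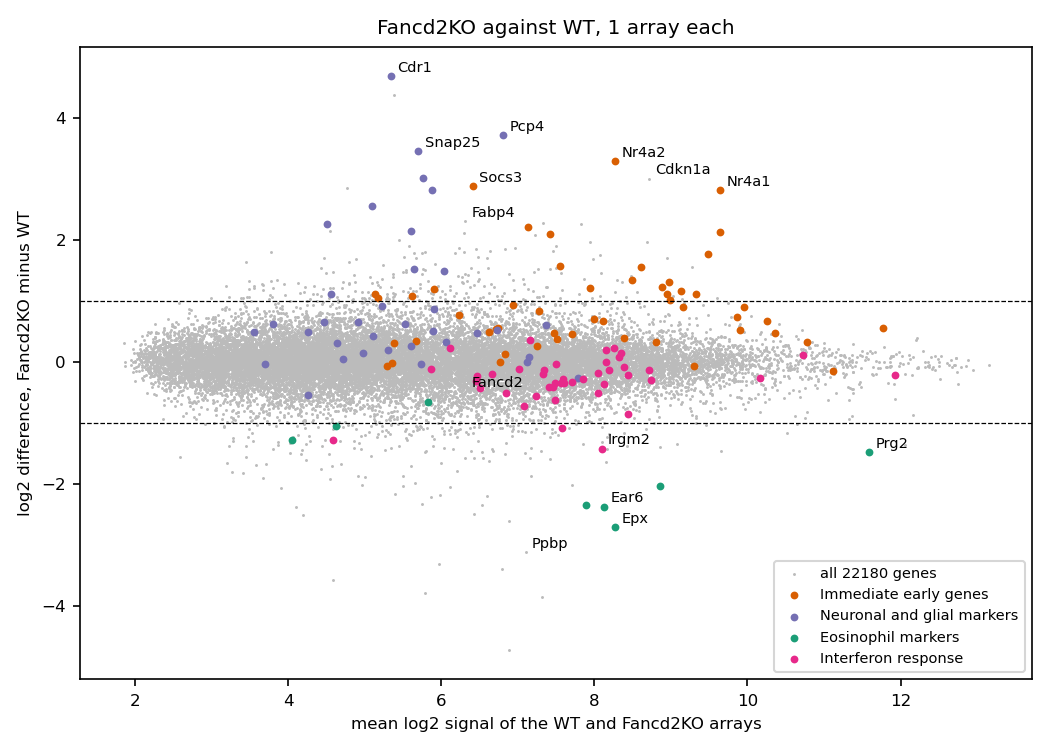
Each point is 1 of 22180 genes, with the mean log2 signal of the WT and Fancd2KO arrays on the x axis and the log2 difference Fancd2KO minus WT on the y axis. Dashed lines mark 2-fold, and colours mark 4 gene lists. Immediate early genes such as Nr4a2 (3.30) lie high at middle and bright levels, neural transcripts such as Cdr1 (4.69) lie high at dim levels, and eosinophil genes such as Epx (-2.71) lie low.

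The first question that Fancd2 loss raises is whether the rest of the repair machinery was expressed differently. None of the 10 DNA repair and checkpoint lists held a gene at 2-fold, and their medians ran from -0.15 to 0.12 log2, beside 0.00 for all genes. In the Fanconi core complex, which ubiquitinates FANCD2, 6 of 12 measured genes were higher, with a median of -0.01. The spread within that list went from Fancb at -0.90 to Fancg at 0.62, and Fancb differed by -0.29 once its signal in Fancd2KO was raised to the floor. Fanci, the binding partner of FANCD2, stood at 6.46 in WT and 6.30 in Fancd2KO, a difference of -0.15. The ubiquitin-conjugating enzyme Ube2t differed by -0.30 and the deubiquitinase Usp1 by 0.04.

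Genes that act after FANCD2 had a median of 0.06 over 13 members, with the nuclease subunits Ercc4 at 0.46 and Ercc1 at -0.41 on opposite sides. The helicase gene Brip1 (0.31), Brca1 (0.26) and Brca2 (0.07) were close to WT. Homologous recombination had 10 of 20 members higher, from Rad51d (-0.43) to the single-strand binding gene Rpa2 (0.82). End joining, an alternative route for broken ends, had 8 of 12 higher with a median of 0.12, and its Ku subunit Xrcc6 was at -0.43. Base excision repair (median 0.08 over 14 genes), nucleotide excision repair (0.03 over 16), mismatch repair (0.04 over 5) and translesion synthesis (0.01 over 8) had both higher and lower members. Among 21 checkpoint genes, 7 were higher. H2ax, the histone variant that marks broken DNA when phosphorylated, stood at 11.19 in WT and 10.38 in Fancd2KO, a difference of -0.81, against 0.96 for DKO minus Foxo3aKO. The kinases Atm (0.01) and Atr (0.11) differed little, while Chek2 and Wee1 were each at -0.59.

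Enzymes that detoxify aldehydes, which form the crosslinks that the pathway repairs, had a median of -0.14 over 13 genes, and 5 were higher. Aldh2 and Adh5, the enzymes for acetaldehyde and formaldehyde, differed by 0.12 and 0.15. Aldh1a1, the retinal dehydrogenase, was the member past 2-fold, with 7.36 (WT), 8.82 (Fancd2KO), 8.85 (Foxo3aKO) and 8.84 (DKO). The WT array alone was low for this gene, so Fancd2KO minus WT was 1.45 while DKO minus Foxo3aKO was -0.02.

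**Figure D2:**
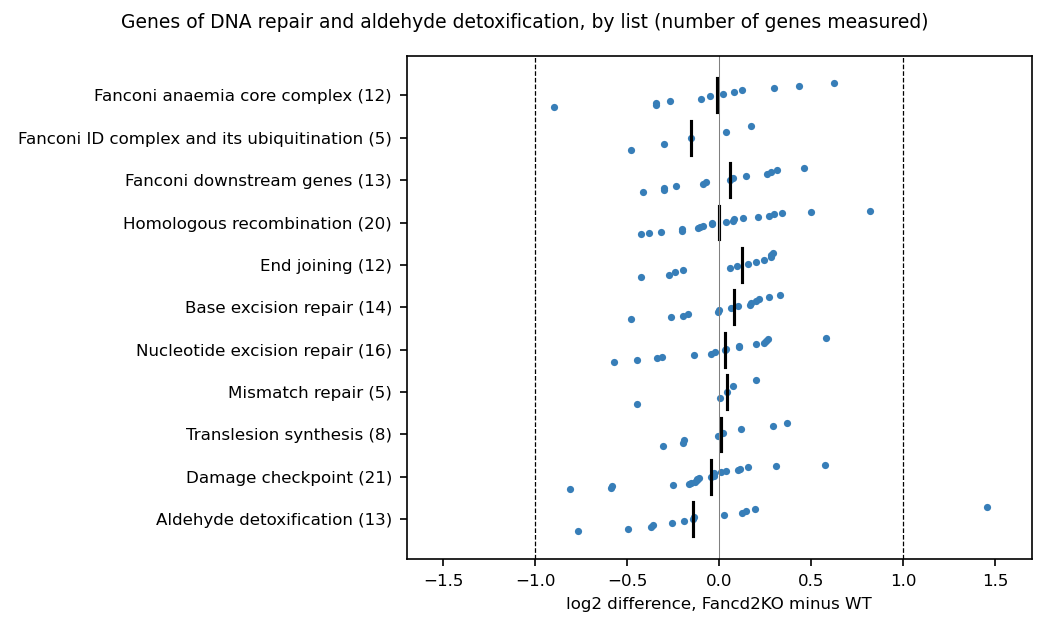
Each point is 1 gene of a DNA repair, checkpoint or aldehyde list, placed on the x axis by its log2 difference Fancd2KO minus WT; rows are lists with the number of genes measured, black bars are list medians and dashed lines mark 2-fold. No gene of a repair or checkpoint list lies past a dashed line, and the aldehyde gene Aldh1a1 lies past the upper one at 1.45.

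Targets of p53, the transcription factor that DNA damage activates, had no common direction: 15 of 31 were higher, the median was -0.05, and 3 were at least 2-fold higher. Cdkn1a, which encodes the cyclin-dependent kinase inhibitor p21, stood at 7.21 (WT), 10.22 (Fancd2KO), 8.14 (Foxo3aKO) and 7.48 (DKO). Fancd2KO was the highest of the 4 arrays for this gene, 3.01 above WT, and DKO minus Foxo3aKO was -0.66. The other members past 2-fold were the polo-like kinase Plk2 (1.97) and Tnfrsf10b (1.72), a death receptor for TRAIL that stood at 5.62 in WT and 7.35 in Fancd2KO. Btg2 (0.91), Plk3 (0.81) and the p53 inhibitor Mdm2 (0.47) were higher by less. Most other targets stood near or below WT: Ccng1 differed by 0.33, the BH3-only gene Bbc3 by -0.18, Fas by -0.50, Xpc by -0.57 and the nuclease Aen by -0.63. Apoptosis regulators had 0 of 25 members at 2-fold and a median of -0.10.

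Beside Cdkn1a, the other 6 cyclin-dependent kinase inhibitors stayed within 2-fold. Cdkn1b (p27) was at -0.51 and Cdkn1c (p57), a gene linked to stem cell quiescence, at 0.28. Genes of the cell cycle differed little. DNA replication genes had 28 of 42 higher with a median of 0.09 and 0 at 2-fold, from Rrm2 (-0.52) and the licensing factor Cdt1 (-0.49) to the flap nuclease Fen1 (0.54) and Orc1 (0.82), a subunit of the origin recognition complex. Mitosis genes had 15 of 35 higher with a median of -0.03, and the centromeric histone Cenpa was at 0.66. Among G1 cyclins, kinases and pocket proteins, E2f7, a repressor of the E2F programme, was at 1.03, and the list median was -0.12.

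The list with the highest median was that of immediate early genes, the transcripts that cells make within minutes of a stimulus without new protein. Of 51 measured members, 47 were higher in Fancd2KO than in WT, 21 at least 2-fold, and 0 were 2-fold lower. The list median was 0.77, and 0.68 after dim signals were raised to the floor, beside 0.00 for all genes. With dim signals raised, 17 of the 21 kept a 2-fold difference. In bulk samples like these, a change in RNA per cell and a change in the share of cells that carry it cannot be told apart.

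The orphan nuclear receptors of the Nr4a family, which respond to many stimuli and restrain proliferation of stem cells, led the list. Nr4a2 stood at 6.62 (WT), 9.92 (Fancd2KO), 9.31 (Foxo3aKO) and 7.89 (DKO). Nr4a1 stood at 8.23, 11.05, 10.09 and 9.03, and Nr4a3 at 6.03, 8.24, 7.15 and 5.96 on the same arrays. For all 3 genes Fancd2KO was the highest array, 9.82-fold, 7.04-fold and 4.65-fold above WT in the same order, and Foxo3aKO came next. The growth response factor Egr1 stood at 8.57, 10.71, 10.24 and 8.53, a difference of 2.14. The stress factor Atf3 stood at 6.37, 8.47, 8.59 and 7.42 (2.10). Both genes were high on the single knockout arrays and lower on the WT and DKO arrays.

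The AP-1 family, dimers of Fos and Jun proteins, was higher in unequal measure. Fosb stood at 8.60 in WT and 10.37 in Fancd2KO (1.77), and Fos at 8.47 and 9.50 (1.02). Fosl2 (1.35) and Junb (1.22) were also past 2-fold, while Jund (0.75) and Jun (0.68) were not. Among Krüppel-like factors, Klf4 (1.58) and Klf6 (1.16) were past 2-fold and Klf2 (0.72) was not. Socs3, which blocks cytokine receptor signalling, stood at 4.97 in WT and 7.85 in Fancd2KO, 2.88 higher, although its second probe set differed by 0.61. The dual-specificity phosphatases that switch off MAP kinases were within 2-fold, at 0.93 for Dusp5, 0.77 for Dusp4, 0.67 for Dusp2 and 0.48 for Dusp1. Members not higher than WT included Myc (-0.07), Ier5l (-0.01) and the mRNA decay factor Zfp36l2 (-0.14). Other genes known to respond to stimuli were among the 30 largest differences: the clock repressor Bhlhe40 (2.26), the ADP-ribosyltransferase Tiparp (1.98, with a second probe set at 2.42) and Rasgef1b (1.85).

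Promoters of the Nr4a genes are shown because they carry several copies of TGACG, the core of the site bound by CREB and ATF factors, whose other strand reads CGTCA. The sequences are from RefSeq for build GRCm38.p6, run 5′ to 3′ on the strand of the gene from 250 bases before to 50 bases after its start, and have the motif in capitals on either strand.
Nr4a1, chr15:101266596-101266895, plus strand: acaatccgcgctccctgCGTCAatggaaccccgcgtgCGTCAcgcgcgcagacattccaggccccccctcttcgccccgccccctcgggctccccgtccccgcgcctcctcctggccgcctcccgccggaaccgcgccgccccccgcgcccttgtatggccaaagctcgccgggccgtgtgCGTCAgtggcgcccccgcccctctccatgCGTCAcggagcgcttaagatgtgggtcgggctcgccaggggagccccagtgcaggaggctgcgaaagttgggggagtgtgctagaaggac
Nr4a2, chr2:57123954-57124253, minus strand: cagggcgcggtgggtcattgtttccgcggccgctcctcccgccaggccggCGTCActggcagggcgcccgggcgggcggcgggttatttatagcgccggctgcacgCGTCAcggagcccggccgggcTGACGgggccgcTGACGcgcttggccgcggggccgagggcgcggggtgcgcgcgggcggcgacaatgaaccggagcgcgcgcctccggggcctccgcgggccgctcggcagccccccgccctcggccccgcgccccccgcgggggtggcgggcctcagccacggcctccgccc
Nr4a3, chr4:48045055-48045354, plus strand: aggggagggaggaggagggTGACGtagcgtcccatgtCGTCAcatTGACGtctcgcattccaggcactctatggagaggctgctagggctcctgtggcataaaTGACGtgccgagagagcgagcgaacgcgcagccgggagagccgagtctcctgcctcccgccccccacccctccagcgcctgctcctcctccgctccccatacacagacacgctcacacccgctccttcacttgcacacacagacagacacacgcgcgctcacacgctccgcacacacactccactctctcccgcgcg
Each of the 3 windows holds 4 copies. TGACG on either strand, counted without overlap so that a site reading the same on both strands counts once, was in 25 of the 40 immediate early genes with a RefSeq promoter (62.5%). The share was 23.0% over 27025 genes with a promoter and 26.8% over those on the array. The median difference was 0.93 for members with the motif and 0.68 for the 15 without it. A match describes these letters and is no evidence of binding.

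**Figure D3:**
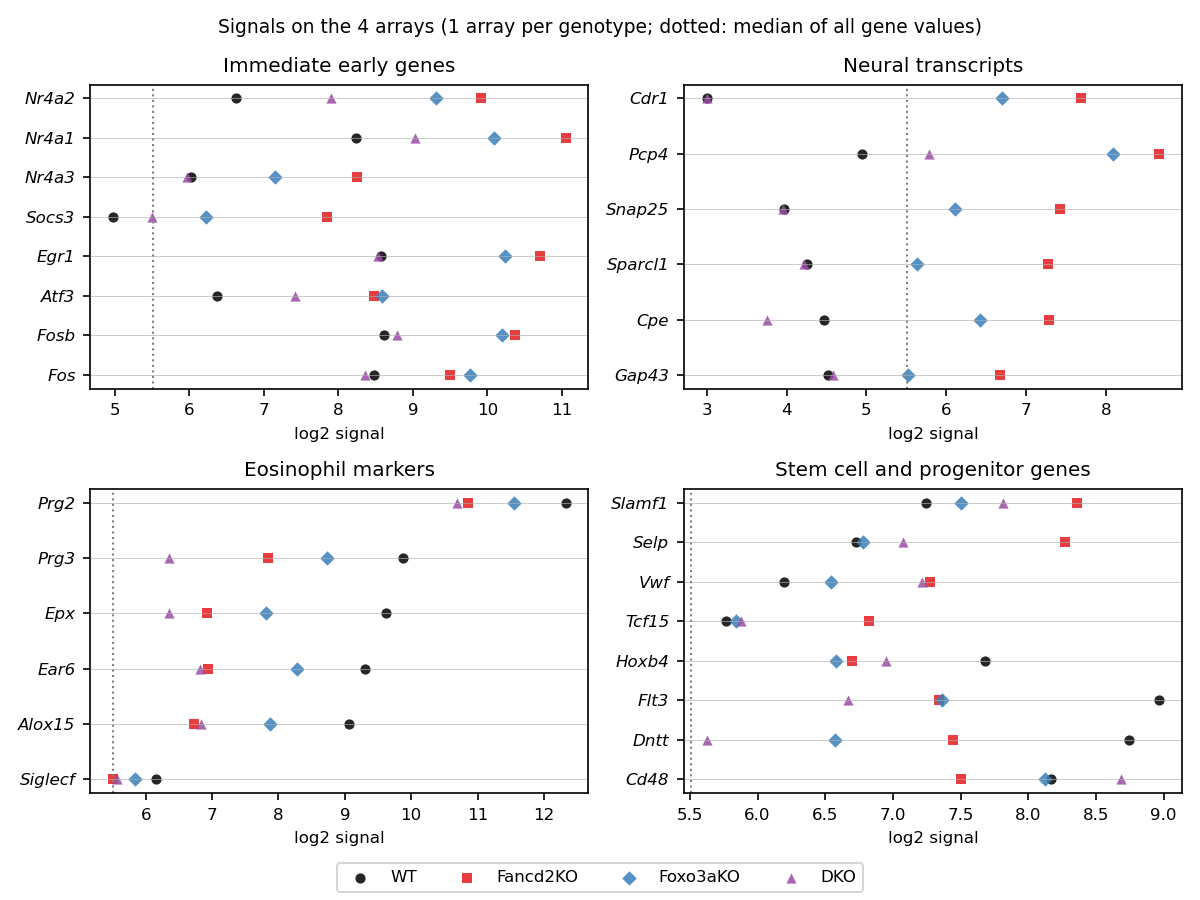
Signals on the 4 arrays are shown for immediate early genes, neural transcripts, eosinophil markers and genes of stem and progenitor cells; the x axis is the log2 signal, marker shape and colour give the genotype, and the dotted line is the median of all gene values, 5.51. Nr4a1 runs from 8.23 in WT to 11.05 in Fancd2KO, and Prg2 from 12.33 in WT down to 10.86 in Fancd2KO and 10.69 in DKO.

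Immediate early genes were not higher with Fancd2 loss on the Foxo3a-deficient background. DKO minus Foxo3aKO had a list median of -0.67, with 0 members at least 2-fold higher and 10 at least 2-fold lower. Egr1 was at -1.71 there, Nr4a2 at -1.42, Fos at -1.41 and Fosb at -1.40. The medians against WT, which share the WT array, were 0.77 for Fancd2KO, 0.66 for Foxo3aKO and 0.00 for DKO. The median levels of the list were 7.47 (WT), 8.48 (Fancd2KO), 8.25 (Foxo3aKO) and 7.42 (DKO), so the single knockouts were high and the other arrays low.

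Inflammatory and stress programmes that share regulators with these genes were examined next. The TNF and NF-kB list had 27 of 36 members higher, 6 of them at least 2-fold, and a median of 0.30, or 0.18 with dim signals raised. Ccl2, a chemokine that attracts monocytes, stood at 5.39 (WT), 7.21 (Fancd2KO), 8.35 (Foxo3aKO) and 6.02 (DKO). Ptgs2, the inducible cyclooxygenase, stood at 6.48, 7.96, 8.49 and 5.89. Both were high on the single knockout arrays, so Fancd2KO minus WT was 1.81 and 1.48 while DKO minus Foxo3aKO was -2.33 and -2.60. The inhibitor of NF-kB Tnfaip3 was at 1.04 and Nfkbiz at 0.83. Il1r2, the decoy receptor for interleukin-1, was at 1.90 for Fancd2KO minus WT and at -2.79 for DKO minus Foxo3aKO. Heat shock genes and chaperones had 17 of 20 members higher with a median of 0.18 and 0 at 2-fold, led by Hspa4 (0.98) and the endoplasmic reticulum chaperone Hspa5 (0.77). In the unfolded protein and integrated stress response, 18 of 28 were higher with a median of 0.12. Ppp1r15a, which restores translation, was at 1.31, and the transcription factor Ddit3 was at 0.93.

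Interferon response genes were lower as a group. Of 43 measured members, 36 were lower in Fancd2KO than in WT, 3 of them at least 2-fold, and the median was -0.25, or -0.22 with dim signals raised. Irgm2, an immunity-related GTPase, stood at 8.80 (WT), 7.39 (Fancd2KO), 8.10 (Foxo3aKO) and 8.85 (DKO). Samd9l, an antiviral gene that limits translation, stood at 8.11, 7.04, 7.95 and 7.41. For both genes Fancd2KO was the lowest array, with differences of -1.42 and -1.07 from WT. The third member past 2-fold, Mx1 (-1.28), lay below the floor on both arrays. Regulators of the pathway were closer to WT: Usp18, which dampens receptor signalling, was at -0.71, the transcription factor Irf7 at -0.63 and Irf9 at -0.56. The effector Ifit1 differed by -0.51 and the ubiquitin-like modifier Isg15 by -0.43, while Gbp3 was at 0.37. For DKO minus Foxo3aKO the list median was 0.22, on the other side of 0. The list medians against WT, which share the WT array, were -0.25 for Fancd2KO, -0.39 for Foxo3aKO and -0.20 for DKO. The lower list median was therefore not particular to Fancd2KO.

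The promoters of 3 members are shown because the interferon-stimulated element is visible in them. Build, strand and window are as above, and capitals mark the element searched, GAAA, any 2 bases and GAAA on either strand.
Irgm2, chr11:58214727-58215026, plus strand: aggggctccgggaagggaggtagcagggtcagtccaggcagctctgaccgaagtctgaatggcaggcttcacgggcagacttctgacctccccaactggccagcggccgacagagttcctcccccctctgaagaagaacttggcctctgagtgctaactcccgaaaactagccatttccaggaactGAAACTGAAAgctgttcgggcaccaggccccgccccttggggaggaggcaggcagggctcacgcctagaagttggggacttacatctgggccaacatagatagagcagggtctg
Ifit1, chr19:34640639-34640938, plus strand: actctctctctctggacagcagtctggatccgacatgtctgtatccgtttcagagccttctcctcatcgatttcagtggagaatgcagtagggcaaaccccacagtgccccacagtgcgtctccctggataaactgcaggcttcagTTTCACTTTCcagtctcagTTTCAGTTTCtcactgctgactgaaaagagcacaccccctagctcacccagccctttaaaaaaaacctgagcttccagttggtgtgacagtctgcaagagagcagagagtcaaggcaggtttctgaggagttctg
Isg15, chr4:156200769-156201068, minus strand: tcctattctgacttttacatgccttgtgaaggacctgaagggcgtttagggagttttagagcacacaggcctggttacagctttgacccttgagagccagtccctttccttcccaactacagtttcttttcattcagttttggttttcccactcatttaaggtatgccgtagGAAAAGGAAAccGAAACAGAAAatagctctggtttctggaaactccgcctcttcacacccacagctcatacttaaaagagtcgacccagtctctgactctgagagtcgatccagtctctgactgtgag
Irgm2 has 1 copy, and Ifit1 and Isg15 have 2 each. The element was in 18 of 33 members with a RefSeq promoter (54.5%), beside 3.99% of 27025 genes. Members with it had a median difference of -0.20 and the 15 without it -0.27. A match in these windows is no evidence of binding, and the part of the element in the differences was not tested.

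Signals that hold stem cells in their niche were not all alike. TGF-beta is a known brake on stem cell cycling, and its activity was not tested here. Its feedback gene Skil stood at 6.55 (WT), 8.37 (Fancd2KO), 7.87 (Foxo3aKO) and 6.98 (DKO). Smad7, the inhibitory Smad, stood at 7.61, 8.97, 7.98 and 7.69. Both were highest in Fancd2KO, by 1.82 and 1.35 over WT. In the list of TGF-beta, BMP and Id genes 20 of 31 were higher, 3 at least 2-fold, and the median was 0.16, or 0.06 with dim signals raised. For DKO minus Foxo3aKO the list median was 0.06 and Skil was at -0.89. Id3, an inhibitor of differentiation factors, was past 2-fold on both backgrounds (1.03 and 1.32), but its signals were dim and the differences were 0.02 and 0.00 with dim signals raised.

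In the Notch pathway, 14 of 22 genes were higher and 3 at least 2-fold, with a median of 0.13, or 0.00 with dim signals raised. The target Hes1 stood at 5.72 (WT), 7.54 (Fancd2KO), 5.84 (Foxo3aKO) and 6.41 (DKO). Hes1 was therefore higher without Fancd2 on both backgrounds, by 1.81 and 0.57. The ligands Jag1 (1.23) and Jag2 (1.06) were past 2-fold and were at 0.45 and 0.59 with dim signals raised, while the receptor Notch1 was at -0.46. Among WNT genes, with 18 of 29 higher and a median of 0.12, the receptor Fzd4 was the member past 2-fold, at 6.07 in WT and 7.30 in Fancd2KO. The list of SOCS genes and STAT5 targets had 9 of 15 members higher and 6 lower, with a median of 0.05. Its cytokine feedback gene Socs2 stood at 6.03, 7.90, 6.85 and 7.50 on the 4 arrays in the same order. Socs2 was higher without Fancd2 on both backgrounds, by 1.87 and 0.65, and its second probe set differed by 0.55 for Fancd2KO minus WT. The values of 0.57 for Hes1 and 0.65 for Socs2 were small. Both were below 0.911, the 95th percentile of probe set disagreement for Fancd2KO minus WT. The kinase gene Pim2 (0.94) and the inhibitor Cish (0.77) of the same list were higher by less, and Socs1 (-0.51) was lower.

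FOXO factors restrain growth and oxidative stress in stem cells. Foxo3 stood at 6.62 in WT and 6.72 in Fancd2KO. Of 35 FOXO factors and targets, 13 were higher, 3 at least 2-fold higher and 1 at least 2-fold lower, and the median was -0.17, or -0.05 with dim signals raised. Txnip, an inhibitor of thioredoxin, was the lower one, at 11.16 in WT and 10.14 in Fancd2KO. The higher ones were Cdkn1a (3.01), Klf6 (1.16) and S1pr1 (1.47), the sphingosine receptor that guides exit from marrow.

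Genes that define haematopoietic stem cells were checked next, since the label rests on a gate. Kit, the stem cell factor receptor in the gate, stood at 10.67 in WT and 10.41 in Fancd2KO. Cd34, which the gate excludes as a surface antigen, had signals of 10.79 and 10.28, so its transcript was bright on both arrays. Procr, a stem cell marker, stood at 7.89 and 8.03. Ly6a, which encodes Sca-1, had no probe set with a single symbol. The labels use the name SLAM but list neither CD150 nor CD48. Slamf1, which encodes CD150, stood at 7.25 (WT), 8.36 (Fancd2KO), 7.51 (Foxo3aKO) and 7.81 (DKO). Cd48 stood at 8.17, 7.50, 8.13 and 8.68. In Fancd2KO, Slamf1 was at its highest (1.11 over WT) and Cd48 at its lowest (-0.66).

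Among 41 surface and identity genes of stem cells, 23 were higher, 4 at least 2-fold higher and 1 at least 2-fold lower; the median was 0.09. Selp, the adhesion molecule P-selectin, stood at 6.72 (WT), 8.27 (Fancd2KO), 6.78 (Foxo3aKO) and 7.07 (DKO). Vwf, which marks platelet-biased stem cells, stood at 6.19, 7.27, 6.54 and 7.22. Vwf was higher without Fancd2 on both backgrounds, by 1.08 and 0.67. The second value was below 0.911, the 95th percentile of probe set disagreement for Fancd2KO minus WT. Vldlr (1.08), Neo1 (0.92) and Clu (0.85) were also higher in Fancd2KO. Transcription factors of stem cells had a median of -0.03 over 38 genes, with 18 higher. Besides Egr1, Tcf15, a factor of quiescent stem cells, was past 2-fold, at 5.77, 6.82, 5.84 and 5.88 on the 4 arrays. Only the Fancd2KO array was high for Tcf15. Hoxb4, which expands stem cells when overexpressed, stood at 7.68, 6.70, 6.58 and 6.95, so that WT alone was high and the difference was -0.98.

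Genes of multipotent progenitors and early lymphoid cells were lower in 20 of 30 cases, 4 of them by at least 2-fold, and had a median of -0.39, or -0.25 with dim signals raised. For DKO minus Foxo3aKO the list median was -0.10, with 18 members lower, 2 of them at least 2-fold, and 12 higher. Flt3, the receptor that marks the loss of long-term repopulation, stood at 8.97 (WT), 7.34 (Fancd2KO), 7.37 (Foxo3aKO) and 6.67 (DKO). Dntt, the lymphoid terminal transferase, stood at 8.74, 7.44, 6.57 and 5.62. Both were lower without Fancd2 on both backgrounds, with differences of -1.63 and -0.70 for Flt3 and of -1.30 and -0.95 for Dntt. The -0.70 of Flt3 was smaller in size than 0.911, the 95th percentile of probe set disagreement for Fancd2KO minus WT. Ighm, the heavy chain of IgM, was at -1.35 for Fancd2KO minus WT but at 0.95 for DKO minus Foxo3aKO. Myeloid enzymes of the list did not follow, with Mpo at 0.18 and Ctsg at 0.43. Cytokine receptors had a median of -0.11 over 38 genes, and Fgfr1 was at 0.94.

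Adhesion and retention genes had 14 of 33 higher and a median of -0.04. Cxcr4, the receptor that holds stem cells in marrow, stood at 10.35 in WT and 9.58 in Fancd2KO, a difference of -0.76. The integrin chains Itgb2 (-0.67), Itgb7 (-0.67) and Itga4 (-0.55) and the selectin ligand Selplg (-0.76) were lower as well, and Jam2 (0.86), Jam3 (0.85) and Vcam1 (0.75) were higher. In the telomere list, with a median of 0.01 over 18 genes, the shelterin gene Pot1a stood at 7.97 in WT and 6.98 in Fancd2KO (-0.99) and the telomerase RNA Terc was at -0.63. Chromatin regulators had 0 of 40 members at 2-fold and a median of -0.02, with Hdac1 at -0.77.

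Imprinted genes, expressed from 1 parental allele, had 17 of 23 members higher, 3 at least 2-fold, and a median of 0.10, or 0.00 with dim signals raised. Meg3 stood at 5.64 (WT), 7.06 (Fancd2KO), 5.46 (Foxo3aKO) and 4.26 (DKO). Rian, a noncoding RNA of the same locus, stood at 5.03, 6.48, 5.13 and 3.97, and Peg3 at 4.67, 6.06, 4.76 and 3.94. For all 3, Fancd2KO was the highest and DKO the lowest array. Peg3 differed by 0.56 and Rian by 0.97 with dim signals raised, and Meg3 kept its difference of 1.43. Meg3, Rian and other genes of their locus were listed together after their values were seen. Of 5 measured genes of that list 4 were higher and 1 was lower, at -0.65. The median was 0.60, or 0.00 with dim signals raised, and 3 of the 5 lay below the floor on both arrays.

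Transcripts best known from neurons and glia, which the gate is not expected to hold, were higher in Fancd2KO. Of 36 measured markers, 32 were higher, 11 at least 2-fold, with a median of 0.57. The list was dim, with median signals of 4.83 (WT), 5.99 (Fancd2KO), 5.28 (Foxo3aKO) and 4.88 (DKO), and with dim signals raised its median difference was 0.16 and 7 members kept a 2-fold difference. Cdr1, a gene of the X chromosome known from the cerebellum, stood at 3.0 (WT), 7.69 (Fancd2KO), 6.69 (Foxo3aKO) and 3.0 (DKO). The calmodulin-binding peptide gene Pcp4 stood at 4.95, 8.67, 8.09 and 5.78. Snap25, a protein of synaptic vesicle fusion, stood at 3.97, 7.43, 6.11 and 3.96. The single knockouts were above the floor for all 3 genes, and WT was below it.

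After dim signals were raised, Pcp4 still differed by 3.16, Cdr1 by 2.18, Snap25 by 1.92, the prohormone carboxypeptidase Cpe by 1.78, Sparcl1 by 1.77 and the growth cone gene Gap43 by 1.16. For the neurofilament Nefl the difference was 2.27 as deposited and 0.13 after that step. The hormone gene Sst, outside the list, stood at 5.24 in WT and 7.36 in Fancd2KO. Other defining markers did not share this, with the astrocyte gene Gfap at -0.03 and the oligodendrocyte factor Olig2 at -0.54. The 2 probe sets of Syp disagreed, at 1.5 and -0.44. For DKO minus Foxo3aKO the list median was -0.20, and 5 members were at least 2-fold lower, among them Cdr1 (-3.69), Cpe (-2.67) and Pcp4 (-2.30). With dim signals raised these differences were -1.19, -0.92 and -2.30. The source of these transcripts was not tested.

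**Figure D4:**
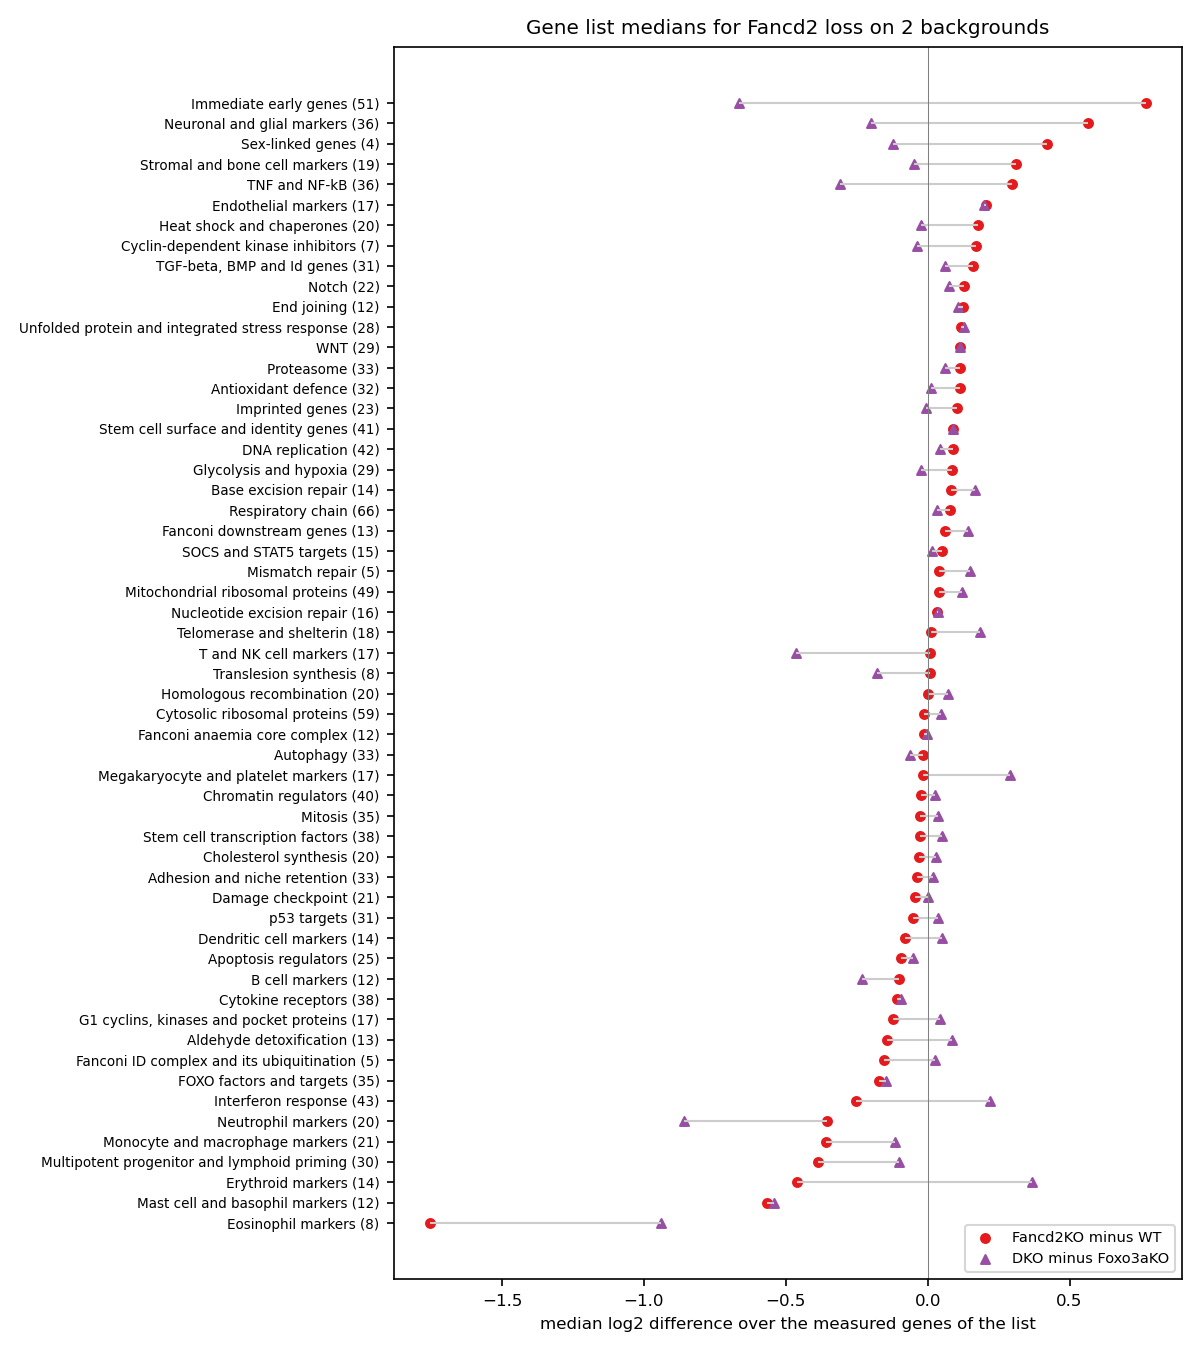
Each row is a gene list with the number of genes measured; the x axis is the median log2 difference over those genes, for Fancd2KO minus WT (circles) and for DKO minus Foxo3aKO (triangles). Immediate early genes (0.77 and -0.67) stand at the top with the markers far apart, and eosinophil markers (-1.75 and -0.94) stand at the bottom with both on the lower side.

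Markers of mature blood cells were mostly lower in Fancd2KO. Eosinophil genes differed most: 0 of 8 measured were higher, 7 were at least 2-fold lower, 5 of them also with dim signals raised, and the median was -1.75. Prg2, the major basic protein of eosinophil granules, stood at 12.33 (WT), 10.86 (Fancd2KO), 11.54 (Foxo3aKO) and 10.69 (DKO). Epx, eosinophil peroxidase, stood at 9.62, 6.92, 7.82 and 6.35, and Prg3 at 9.88, 7.84, 8.73 and 6.35. For each of these genes WT was the highest array and DKO the lowest. The granule ribonuclease Ear6 was at -2.37 for Fancd2KO minus WT and at -1.47 for DKO minus Foxo3aKO, and the lipoxygenase Alox15 at -2.34 and -1.03. The receptors Il5ra and Ccr3 lay below the floor on both arrays, and Siglecf differed by -0.65. The median for DKO minus Foxo3aKO was -0.94, with 4 members at least 2-fold lower. The 5 granule and enzyme genes named here were above the floor on every array, although the gate removes cells with lineage antigens.

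Neutrophil markers had 3 of 20 higher and a median of -0.36, and -0.86 for DKO minus Foxo3aKO. Their median levels were 10.85 (WT), 10.58 (Fancd2KO), 11.61 (Foxo3aKO) and 10.37 (DKO), so they were bright on every array. Ly6g stood at 9.75 (WT), 8.40 (Fancd2KO), 10.47 (Foxo3aKO) and 7.96 (DKO), whereas the calcium-binding gene S100a8 stood at 13.02, 12.88, 13.07 and 12.91. Ly6g was lower without Fancd2 on both backgrounds, with differences of -1.35 and -2.51. Erythroid markers had 1 of 14 higher and a median of -0.46, against 0.37 for DKO minus Foxo3aKO. The erythroid median levels were 6.98 (WT), 6.24 (Fancd2KO), 6.11 (Foxo3aKO) and 6.79 (DKO), so both single knockouts were low. The carbonic anhydrase Car1 was at -1.42 for Fancd2KO minus WT and at 2.09 for DKO minus Foxo3aKO. Their part in the differences of other genes was not tested.

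Of 21 monocyte and macrophage markers 7 were higher and the median was -0.36. Adgre1, a receptor on macrophages, was at -1.17 and the macrophage factor Spic at -1.02. On the other side 3 markers were past 2-fold, by up to 1.58, with Cd14 (1.04) and Vcan (1.02) among them. Mast cell and basophil markers had 2 of 12 higher and a median of -0.57, or 0.00 with dim signals raised. Cpa3 stood at 7.49 in WT and 6.36 in Fancd2KO, and Mcpt8 at 8.53 and 7.60. Megakaryocyte and platelet markers did not share a direction: Ppbp, a platelet chemokine, stood at 8.66 (WT), 5.55 (Fancd2KO), 5.37 (Foxo3aKO) and 5.27 (DKO), with WT alone high, whereas the thrombin receptor F2r was at 1.04 and Pf4 at 0.34. Medians were -0.02 for that list of 17, -0.10 for 12 B cell markers, 0.01 for 17 T and NK cell markers and -0.08 for 14 dendritic cell markers.

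Markers of the marrow stroma were dim. Of 19 stromal and bone cell markers 17 were higher with a median of 0.31, and 13 lay below the floor on both arrays, so the median was 0.00 with dim signals raised. Sparc stood at 5.17 in WT and 6.49 in Fancd2KO, and Cxcl12, the ligand of Cxcr4, at 5.44 and 6.35. The 17 endothelial markers had a median of 0.21, and 9 of them lay below the floor on both arrays. Fabp4, a fatty acid carrier of capillaries and adipocytes, stood at 5.16 (WT), 7.47 (Fancd2KO), 4.10 (Foxo3aKO) and 9.22 (DKO). It was higher without Fancd2 on both backgrounds, by 2.31 and 5.12. Xist, from the inactive X chromosome of females, stood at 11.06 in WT and 10.18 in Fancd2KO, and the Y-linked genes Eif2s3y (0.63), Uty (0.45) and Kdm5d (0.40) were higher in Fancd2KO. Both kinds of transcript were above the floor on every array.

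Across all 22180 genes, the differences for Fancd2 loss on the 2 backgrounds had a Pearson correlation of -0.04 and a Spearman correlation of -0.03, given as a description because genes are not independent replicates. Of the 256 genes at least 2-fold higher in Fancd2KO than in WT, 5 (1.95%) were at least 2-fold higher in DKO than in Foxo3aKO and 38 (14.8%) at least 2-fold lower. Over all genes those shares were 0.825% and 1.54%. Of the 223 lower genes, 25 (11.2%) were at least 2-fold lower and 17 (7.62%) at least 2-fold higher. The median of DKO minus Foxo3aKO was -0.34 over the higher genes and -0.13 over the lower genes, beside 0.04 over all. Of the higher genes, 67 (26.2%) were higher by any amount on the second background as well, and of the lower genes 128 (57.4%) were again lower. Over all genes, 55.3% were higher by any amount on that background, so lower genes were the minority there.

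**Figure D5:**
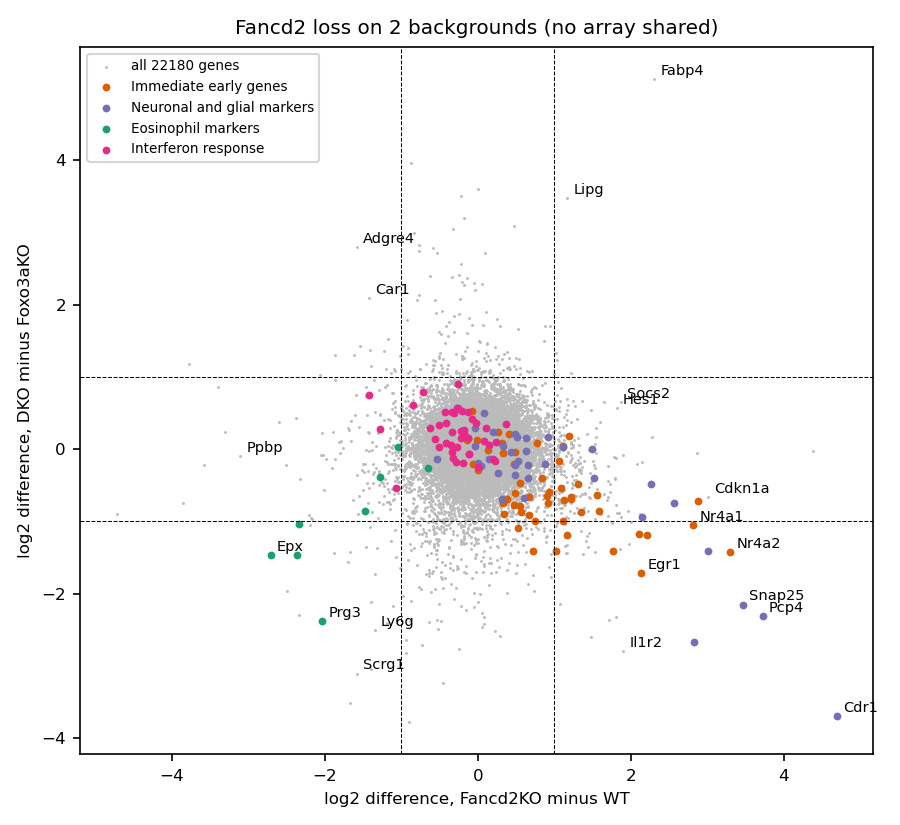
Each point is 1 of 22180 genes, with the log2 difference Fancd2KO minus WT on the x axis and DKO minus Foxo3aKO, which shares no array with it, on the y axis; dashed lines mark 2-fold and colours mark 4 gene lists. Eosinophil genes such as Epx (-2.71 and -1.46) lie low on both axes, and immediate early genes such as Egr1 (2.14 and -1.71) lie at the lower right.

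The named genes at least 2-fold in the same direction on both backgrounds numbered 17. The 4 higher ones were Fabp4, Id3, the endothelial lipase gene Lipg and the PI3-kinase regulatory subunit Pik3r3. Lipg stood at 4.28 (WT), 5.46 (Fancd2KO), 4.34 (Foxo3aKO) and 7.81 (DKO). Except for Fabp4, their Fancd2KO signals were near or below the floor. Of the 13 lower ones, 5 are granulocyte genes already described, Epx, Ear6, Alox15 and Prg3 of eosinophils and Ly6g of neutrophils. Rnase12, of the ribonuclease family, stood at 7.70, 5.37, 6.73 and 4.44, and Gapt, an adaptor that binds GRB2, at 8.05, 6.91, 8.30 and 7.03. Scrg1 stood at 7.95, 6.38, 8.76 and 5.65. The others were Serpinb2, Klk1, H2-Q10, and Srsy and Astx5, which belong to multicopy families on the sex chromosomes whose single values are uncertain. For all 13 lower genes, both arrays with Fancd2 were above both arrays without it. Selection for a 2-fold difference on both backgrounds favours that order, so it is no separate support. With dim signals raised, Klk1 differed by -0.02 and -0.52 on the 2 backgrounds and Serpinb2 by -0.43 and 0.00, and the second probe set of H2-Q10 stood on the other side of 0, at 0.11, for Fancd2KO minus WT. After that step 11 of the 13 lower genes and 1 of the 4 higher genes, Fabp4, were 2-fold the same way on both backgrounds.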

How the data were processed

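RNA of 4 sorted marrow samples, 1 per genotype, was measured on arrays. The values are log2 expression values made by the authors, as the range of the deposited table shows, and Affymetrix Expression Console was used, per the submitters' processing notes. The sources used here do not give its version, summarisation or filters. At each rank an array was at most 0.0889 log2 from the mean of the 4, so no normalisation was added. The platform annotation named the probe sets: 23521 had 1 symbol, 1814 several and 16010 none listed. The brightest probe set with 1 symbol by the mean of the 4 arrays stood for its gene. Differences are plain subtractions, with no filter, and 2-fold was the threshold; other normalisations, filters, thresholds and probe set rules were tried. No test was possible with 1 array per genotype; the number of arrays limits the precision. Scripts were tested on simulated data.

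The comparison, gene lists and naming rule were chosen with earlier results of these data known. The rule names Fancd2 and Foxo3, the 30 largest differences in each direction with the brighter array at or above 5.51 log2, genes past 2-fold the same way on both backgrounds, leading and defining list members, and neighbours of Fancd2. Python 3.11.15 with numpy 2.4.6 and pandas 2.3.3 and, for cyclic loess, limma 3.58.1 in R 4.3.3 were used. Promoters and gene positions are from RefSeq on GRCm38.p6.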

Additional observations from a re-analysis of the deposited data

Results flagged for a closer look

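Immediate early genes had a median difference of 0.77 log2 for Fancd2KO minus WT and -0.67 for DKO minus Foxo3aKO, on opposite sides of 0. Erythroid markers had medians of -0.46 and 0.37 for the same contrasts. Against WT, the erythroid medians were -0.48 for Foxo3aKO and -0.04 for DKO. Among named genes, with dim signals raised to the floor, 20 were at least 2-fold higher in Fancd2KO than in WT and at least 2-fold lower in DKO than in Foxo3aKO, among them Egr1, Nr4a1, Nr4a2, Ccl2, Ptgs2, Il1r2, Pcp4 and Cdr1. A further 6 were lower and then higher: Adgre1, Adgre4, Apobec3, Car1, H2ac21 and Mc5r. These results stand here because the single-array differences had opposite signs on the 2 backgrounds. With 1 array per genotype, whether the effect of Fancd2 loss differed was not tested, and array, cell composition and genotype cannot be told apart.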

How the results depend on the processing

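Counts of genes at least 2-fold higher and lower in Fancd2KO were 145 and 125 among genes whose 4-array mean reached the floor, 134 and 113 with dim signals raised to it, 1058 and 1137 at 1.5-fold, where lower genes were the more numerous, and 54 and 48 at 3-fold. They stayed within 1.5 times under median centring, quantile normalisation, cyclic loess, the mean of all probe sets of a gene and a filter on the highest array. The share of higher genes also 2-fold higher in DKO than in Foxo3aKO was 0.690% with the mean filter. Raising dim signals moved the medians of the TNF and NF-kB list to 0.18, of progenitor and lymphoid genes to -0.25, of neuronal and glial markers to 0.16 and of FOXO genes to -0.05, and brought those of the Notch, WNT, imprinted, aldehyde, kinase inhibitor, endothelial, stromal and mast cell lists to 0.00. In all it moved 15 list medians. The mean filter moved 7, among them those of eosinophil markers to -2.19 and of mast cell and basophil markers to -0.96. The medians of 6 lists, all within 0.0601 of 0 as reported, turned their sign in an alternative, and no other list median did. Of single genes, 68 were checked under quantile normalisation, the mean of all probe sets and raised dim signals. These were Fancd2, Foxo3, the genes with the largest differences and those past 2-fold the same way on both backgrounds. None of these genes turned its sign, and the other genes named in the text were not checked in this way. No paired analysis was possible because each genotype has 1 array. Dim signal limits most of the neural, stromal and endothelial values, and no spread between mice can be given.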

Other observations

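Metabolic and housekeeping lists differed little between Fancd2KO and WT. Respiratory chain genes had 42 of 66 higher with a median of 0.08, mitochondrial ribosomal proteins 30 of 49 with 0.04, proteasome genes 24 of 33 with 0.11 and antioxidant genes 22 of 32 with 0.11. None of these 4 lists held a gene at 2-fold. Autophagy (-0.02 over 33 genes) and cholesterol synthesis (-0.03 over 20) were also near 0. Glycolysis and hypoxia genes had a median of 0.08 over 29, but Vegfa, the angiogenic growth factor that hypoxia induces, stood at 7.13 (WT), 8.83 (Fancd2KO), 7.61 (Foxo3aKO) and 7.17 (DKO). Only the Fancd2KO array was high for Vegfa. Hexokinase Hk2 was at 0.97, and the hypoxia-induced prolyl hydroxylase Egln3 was at -0.77.

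Like the list of Meg3, Rian and other genes of their locus, a pair of families was put together after their values were seen. Of 26 replication-dependent histone genes, which are transcribed in S phase, 22 were lower in Fancd2KO, with a median of -0.42, or -0.13 with dim signals raised. H2ac21 stood at 9.55 (WT), 8.15 (Fancd2KO), 8.18 (Foxo3aKO) and 9.33 (DKO), and its second probe set differed by -0.47. Of 362 zinc finger genes with a Zfp symbol, 248 were lower, and the median was -0.16, or -0.05 with dim signals raised. At least 2-fold lower were 22 of the 362, beside 223 (1.01%) of all 22180 genes. With dim signals raised 12 were 2-fold lower, and 95 of the 362 lay below the floor on both arrays. Zfp972 (-2.32) and Zfp108 (-2.18) were the lowest of those named. For DKO minus Foxo3aKO the medians were 0.15 for histones and 0.05 for zinc finger genes. Copies in both families are similar in sequence, so their single values are uncertain.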
